A study of Phaseolus coccineus with 4 samples.

Results

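Phytochromes are red and far-red light receptors that move into the nucleus when activated by light. There they act against repressors of light responses, and phytochrome A is the member known for sensing very weak and far-red light. CONSTANS-like proteins are nuclear proteins with B-box zinc fingers and a CCT domain, named for CONSTANS, which in Arabidopsis couples day length to flowering. Both families are best studied in seedlings and leaves, and phytochrome A is also known for its part in seed germination.

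The genes described here are those whose single symbol in the platform annotation names a phytochrome of the classes A to E or a numbered CONSTANS-like gene. That rule found 3 genes, of 1003 named on the array, and 4 of its 61170 probe sets: 1 for PHYA, 2 for COL10 and 1 for COL2A. PHYA and COL10 were chosen by their measured difference between the regions of the embryo, so that difference is given as a description and not as a test. For PHYB, PHYC, PHYD, PHYE and CONSTANS itself, 0 probe sets carried the symbol alone, so those genes are not analysed here. A further 7001 soybean probe sets carry only a placeholder symbol and 370 carry several symbols, and relatives may be among them.

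The samples are embryo proper and suspensor of globular embryos of scarlet runner bean, Phaseolus coccineus cultivar Hammond's Dwarf Red Flower, taken 6 days after hand pollination from plants under 16 h of light and 8 h of dark. The embryo proper forms the plant body, and the suspensor is the stalk beneath it. Each region has 2 samples, called biological replicates in the labels, with nothing said of the plants behind them, so the spread between them may be partly technical. No genetic change or treatment separates the groups, which were cut by laser from sections of the same kind of fixed seed. Amplified bean RNA was read on probes designed for soybean, so a dim probe set may be one that the bean transcript matches poorly. Signals are linear intensities, and an array's background level is the 95th percentile of its 23350 probe sets for Phytophthora and nematode.

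Background levels lay between 873 and 1034 over the 4 arrays, and 7328 to 8742 of 37593 soybean probe sets exceeded them. The median signal of the bacterial and phage spike controls was 46706 and 58957 for embryo proper, against 97327 and 159448 for suspensor. The RNA put into amplification was about 60 and 75 ng for embryo proper, against 106 and 137 ng for suspensor. Of 30 marker genes listed for suspensor, embryo proper, seed coat, endosperm and vascular tissue, 1 matched a symbol, the seed coat gene ANR1. Its signals, between 99 and 458, never exceeded background. The identity of the regions was therefore not checked with these markers.

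PHYA transcript was well above background in both regions and higher in the embryo proper. The PHYA probe set gave signals of 15747 and 13832 in embryo proper replicates 1 and 2. In suspensor replicates 1 and 2 its signals were 3383 and 3374. The lowest embryo proper signal was thus 4.09 times the highest suspensor signal, and the regions did not overlap. Over the background level of each array, PHYA stood at 17.9 and 15.8 times in embryo proper and at 3.66 and 3.26 times in suspensor. In bulk tissue, fewer cells holding a transcript and less of it per cell cannot be told apart.

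The mean PHYA signal was 14789.5 ± 1354 (SD, n = 2) in embryo proper and 3378 ± 6.01 (SD, n = 2) in suspensor. On the log2(intensity + 16) scale the difference, suspensor minus embryo proper, was -2.12. The PHYA replicates lay closer together than those of most tested probe sets, many of them dimmer. Spread was not compared at like signal. The log2 difference between PHYA replicates was 0.19 in embryo proper, where 29.2% of 8972 tested probe sets had a smaller one. In suspensor it was 0.0036, and 0.379% of tested probe sets had a smaller one. Tested probe sets are the soybean ones above background on at least 2 arrays, of which 4480 were above it on all 4.

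**Figure D1:**
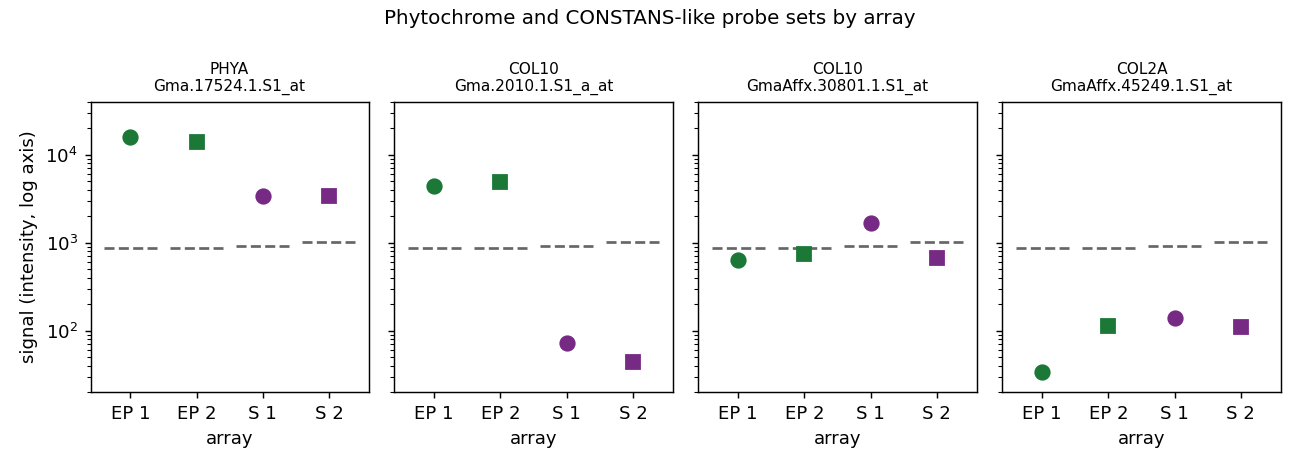
Signal (intensity, log axis) of the 4 phytochrome and CONSTANS-like probe sets on embryo proper arrays EP 1 and EP 2 (green) and suspensor arrays S 1 and S 2 (purple), each point 1 array, with dashed lines at the background level of that array. PHYA is above background on all 4 arrays, the first COL10 probe set on the embryo proper arrays alone, the second on suspensor array 1 alone, and COL2A on none.

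COL10 was read by a pair of probe sets that gave different pictures. By the first, the brighter of them, the signals were 4378 and 4854 in embryo proper, 4.97 and 5.56 times the background level. In suspensor they were 73.0 and 44.0, below background on both arrays. Those suspensor signals were dimmer than most probe sets designed for other organisms: 34.5% and 17.1% of the Phytophthora and nematode probe sets were dimmer. The embryo proper signal was therefore at least 4.65-fold higher. That bound sets each suspensor array at its lowest soybean signal above background, 925 and 1034.

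The same pattern, detection in both embryo proper samples and in no suspensor sample, was found in 906 of the 37593 soybean probe sets, or 2.41%. On the log2(intensity + 16) scale the measured COL10 difference was -5.98, but its size rests on suspensor signals below background. The log2 difference between replicates of this probe set was 0.15 in embryo proper and 0.57 in suspensor.

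The second COL10 probe set did not show that pattern. It read 630 and 737 in embryo proper, below background on both arrays. In suspensor it had 1679 on array 1, above background, and 678 on array 2, below it. The suspensor arrays thus fell on either side of the embryo proper signal of 737 and of background, and the probe set was not tested. Of 18 named genes with several probe sets and 1 of them above background in embryo proper alone, 10 had another above background on a suspensor array.

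COL2A, another CONSTANS-like gene, was not detected in either region. Its probe set read 34.2 and 112 on the arrays of the embryo proper, and 141 and 109 on those of the suspensor. All 4 lay below background, so no fold is given. Of the 4 probe sets, 2 were thus detected in both embryo proper samples and 1 in both suspensor samples. PHYA and COL10 were chosen by their difference between the regions, so nothing is read from this count.

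In the comparison of suspensor with embryo proper over all 8972 tested probe sets, limma called 167 higher in embryo proper, or 1.86%, and 247 in either direction, or 2.75%. Among those 167 were both tested probe sets of these genes, PHYA and the first of COL10, which is what they were chosen for, so nothing is read from that count. Every embryo proper signal exceeded every suspensor signal in 33.4% of tested probe sets, PHYA and this COL10 probe set included. The median log2 difference of all tested probe sets was -0.18. The PHYA value lay just beyond their 5th percentile, -2.03, and 409 of them, or 4.56%, had a lower value. Among the 4480 probe sets above background on all arrays, 44 had a lower difference than PHYA, or 0.982%. That set leaves out every probe set detected in embryo proper alone, the first of COL10 among them. PHYA was chosen by this difference, so neither rank is a test. Neither PHYA nor this COL10 probe set was called without embryo proper replicate 1 or without replicate 2, and PHYA was not called without a variance trend.

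**Figure D2:**
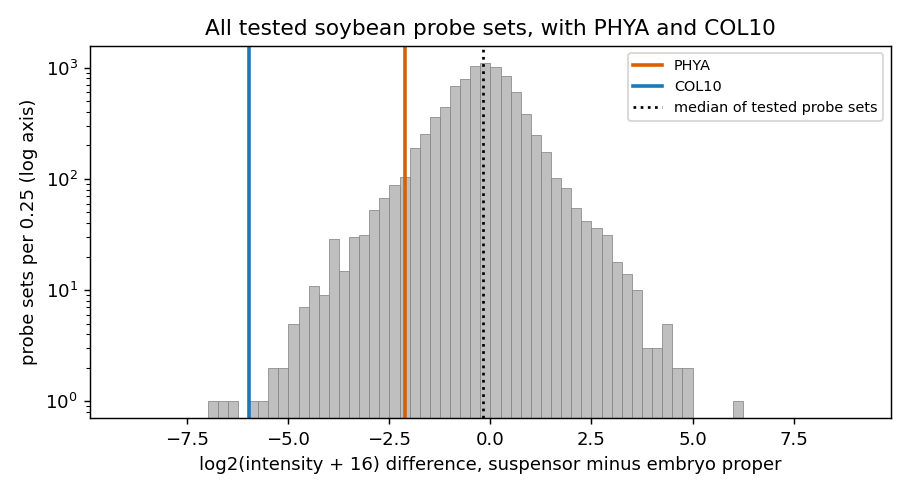
Number of tested soybean probe sets (log axis) by their log2(intensity + 16) difference, suspensor minus embryo proper, in steps of 0.25, with lines at PHYA (-2.12), the first COL10 probe set (-5.98) and the median of all tested probe sets (-0.18). PHYA lies at the edge of the lower tail, and the place of COL10 rests on suspensor signals below background.

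The soybean actin controls, which are no members, moved the same way as PHYA toward the 3' end. The 3' actin control read 13961 and 5246 in embryo proper against 2766 and 4375 in suspensor, a log2 difference of -1.29. The middle actin control had 10732 and 10806 against 5207 and 2895, a log2 difference of -1.47. The 5' actin control went the other way, with 90 and 400 in embryo proper against 857 and 1217 in suspensor, of which 1217 alone was above background. Its measured log2 difference of 2.31 thus rests mostly on signals below background. The part of RNA quality, input or spike level in the PHYA and COL10 differences was not tested.

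Genes with a symbol were compared with PHYA by their pattern over the 4 arrays. Likeness was the Euclidean distance between log2(intensity + 16) values, each probe set centred on its own mean, over 427 other tested probe sets with a gene symbol. BZIP47, a bZIP transcription factor, lay at a distance of 0.30, at 991 and 984 in embryo proper against 168 and 205, below background, in suspensor, so that distance rests on signals below background. SGF14f, a 14-3-3 protein, lay at 0.33, detected on all 4 arrays at 12754 and 13809 in embryo proper against 3765 and 3212 in suspensor. The next were the lipoxygenase VLXB at 0.51, CCT-D at 0.53 and the aquaporin PIP2-6 at 0.54, of which VLXB and PIP2-6 were below background on 1 suspensor array each. With 4 arrays in 2 regions, the distance mostly reflects the difference between regions.

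COL10 had no neighbour as close. The distance is not scaled to the size of a difference, and only 4 tested probe sets had a lower difference than its first probe set. The greater distances are therefore not read as a trait of COL10. The nearest to the first COL10 probe set was PSAD, a subunit of photosystem I, at a distance of 1.78. IQD18 at 2.04 and the aquaporin PIP2-1 at 2.23 came next. CYP17 and the gene listed as G followed at 2.77 and 3.10. All 5 were detected in both embryo proper samples and in neither of the suspensor samples, as COL10 was, so these distances depend on suspensor signals below background.

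**Figure D3:**
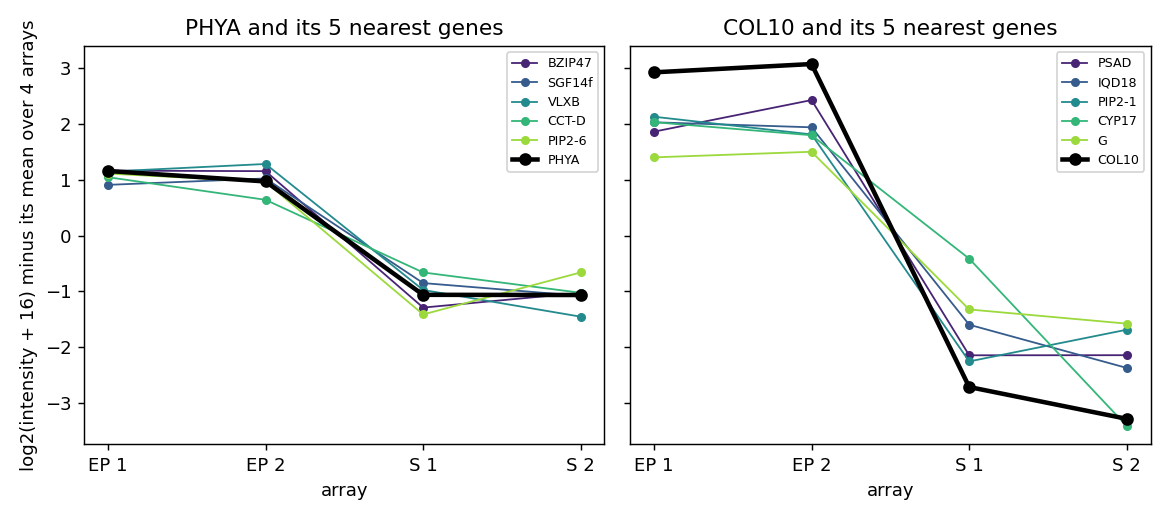
log2(intensity + 16) of each probe set minus its mean over the 4 arrays, for PHYA (left, black) and the first COL10 probe set (right, black) with the 5 genes nearest to each; EP marks embryo proper and S suspensor arrays. The PHYA neighbours, at distances of 0.30 to 0.54, lie closer to it than those of COL10, at 1.78 to 3.10. The distances are not scaled to the size of the difference, which is larger for COL10.

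For other genes of light perception, photomorphogenesis, the circadian clock and flowering time, a list by symbol matched 19 probe sets of 14 genes. One of the 14 listed genes, FTRC, a subunit of ferredoxin-thioredoxin reductase, was caught by the pattern for FT and belongs to photosynthesis. Of the other 18 probe sets, of 13 genes, 13 were below background on all 4 arrays, as were 24694 of all 37593 soybean probe sets. A further 3 were above it on 1 array, and 2 were tested. By limma 0 of these 2 passed in either direction at an adjusted p of 0.05, beside 2.75% of all tested probe sets called. An unadjusted p below that value was found for 0 of the 2, and for 1802 of all 8972 tested probe sets. Outside the list, a probe set annotated with both a placeholder and the clock gene GIGANTEA was also tested. It was not called (log2 difference -0.50, limma adjusted p = 0.61).

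The tested pair of the list were COP10 and LHY. COP10 is a ubiquitin-conjugating enzyme variant that in Arabidopsis represses photomorphogenesis in darkness. It read 1733 and 2193 in embryo proper, against 1604 and 1595 in suspensor. The suspensor arrays were lower by a small margin, with a log2 difference of -0.28 (95% interval -1.13 to 0.56, limma adjusted p = 0.69). LHY, a MYB-related factor of the circadian clock, had 1777 and 2660 in embryo proper against 2357 and 1510 in suspensor. Its regions overlapped, with a log2 difference of -0.20 (95% interval -1.16 to 0.76, limma adjusted p = 0.81). A second LHY probe set was below background on all 4 arrays. Both intervals leave out -2.12, the PHYA difference, but PHYA was chosen by that difference, so nothing is read from this. The differences between genes were not tested.

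Several genes that act beside phytochrome were near or below background, and they are named after their values were seen. CRY2B, a cryptochrome blue-light receptor, read 874 and 595 in embryo proper against 935 and 737 in suspensor, of which 935 alone was above background. HO1, a heme oxygenase of the kind that takes part in making the phytochrome chromophore, was below background on all 4 arrays by both of its probe sets, at 101 to 788. HO3, another heme oxygenase, was between 16.3 and 70.2. STF2, a bZIP factor related to HY5 of Arabidopsis, was at most 639 by both of its probe sets.

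Among the listed clock and flowering genes other than LHY, ZTL1, an F-box protein of the ZEITLUPE family, was at most 1010 by both probe sets, below background throughout. LUXC was above background by 1 of its 2 probe sets on suspensor array 2 alone, by less than 1 unit of signal at 1034. DOF6, a zinc-finger factor, exceeded background on embryo proper array 1 alone, at 1115 against 441 on array 2. FT1A, of the family of the mobile flowering signal, was between 42.2 and 550, and LCL3, DOF10 and AP1A were also below background on all 4 arrays. For these genes a difference between regions was not measurable with these probes.

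**Figure D4:**
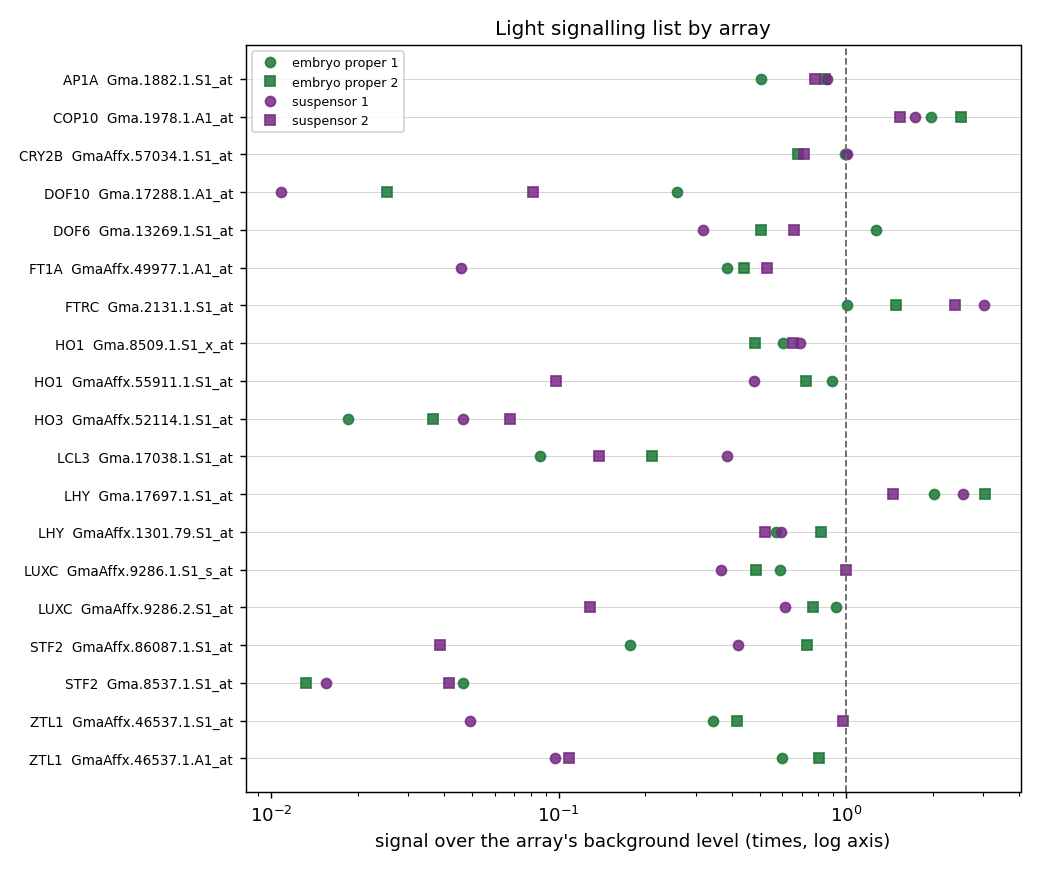
Signal over the background level of the array (times, log axis) for the 19 probe sets of the light signalling list, each point 1 array, green for embryo proper and purple for suspensor, circles for replicate 1 and squares for replicate 2. The dashed line is the background level, and only COP10, 1 LHY probe set and FTRC are above it on all 4 arrays.

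Nuclear genes for photosynthesis and chlorophyll synthesis, many of which are known to respond to phytochrome in seedlings, did not share 1 direction. The list matched 21 probe sets of 11 genes, and 8 probe sets of 5 genes were tested. By limma 2 of the 8 were called higher in embryo proper and 0 higher in suspensor. Over all tested probe sets, 1.86% were called higher in embryo proper and 2.75% in either direction. The list was chosen with earlier results of these data known, so nothing is read from that count. The median log2 difference of the 8 was -0.28, against -0.18 over all tested probe sets. The called ones were 1 probe set each of PSAD and of CAB3, a chlorophyll a/b-binding protein. This PSAD probe set read 11947 and 17685 in embryo proper against 733 and 734, below background, in suspensor. The embryo proper signal was at least 14.6-fold higher (limma adjusted p = 0.0088). This probe set met the filter for testing through the embryo proper arrays alone, so that adjusted p is given as a description. Without embryo proper replicate 2 its adjusted p was 0.057. The second tested PSAD probe set, at 1204 and 638 against 1256 and 1025, did not pass (adjusted p = 0.72).

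The CAB3 probe set that passed had 4049 and 6168 against 1047 and 788, a log2 difference of -2.44 (limma adjusted p = 0.026). It did not pass without either embryo proper replicate, with adjusted p of 0.13 and 0.24, or without a variance trend, at 0.073. The brightest CAB3 probe set had 6163 and 6561 in embryo proper against 4982 and 4023 in suspensor, without passing (adjusted p = 0.39). All 3 tested CAB3 probe sets share probes with other transcripts.

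Some photosynthesis genes lay the other way without passing. ELIP, an early light-induced protein of the thylakoid, read 5009 and 6751 in embryo proper against 26300 and 9491 in suspensor. Its log2 difference was 1.44 (limma adjusted p = 0.18). FTRC had 886 and 1299 against 2786 and 2472, a log2 difference of 1.28 (limma adjusted p = 0.13). Both were called when only probe sets above background on all 4 arrays were tested, with adjusted p of 0.041 and 0.016, and ELIP also without suspensor replicate 2, at 0.019. HEMB, an enzyme of porphyrin synthesis, had 10988 and 10781 against 12502 and 8703, so its regions overlapped. CHLH, a subunit of magnesium chelatase, was above background on embryo proper array 1 alone, at 947, and the 4 RCA genes, for Rubisco activase, had no tested probe set, nor had HEMG.

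**Figure D5:**
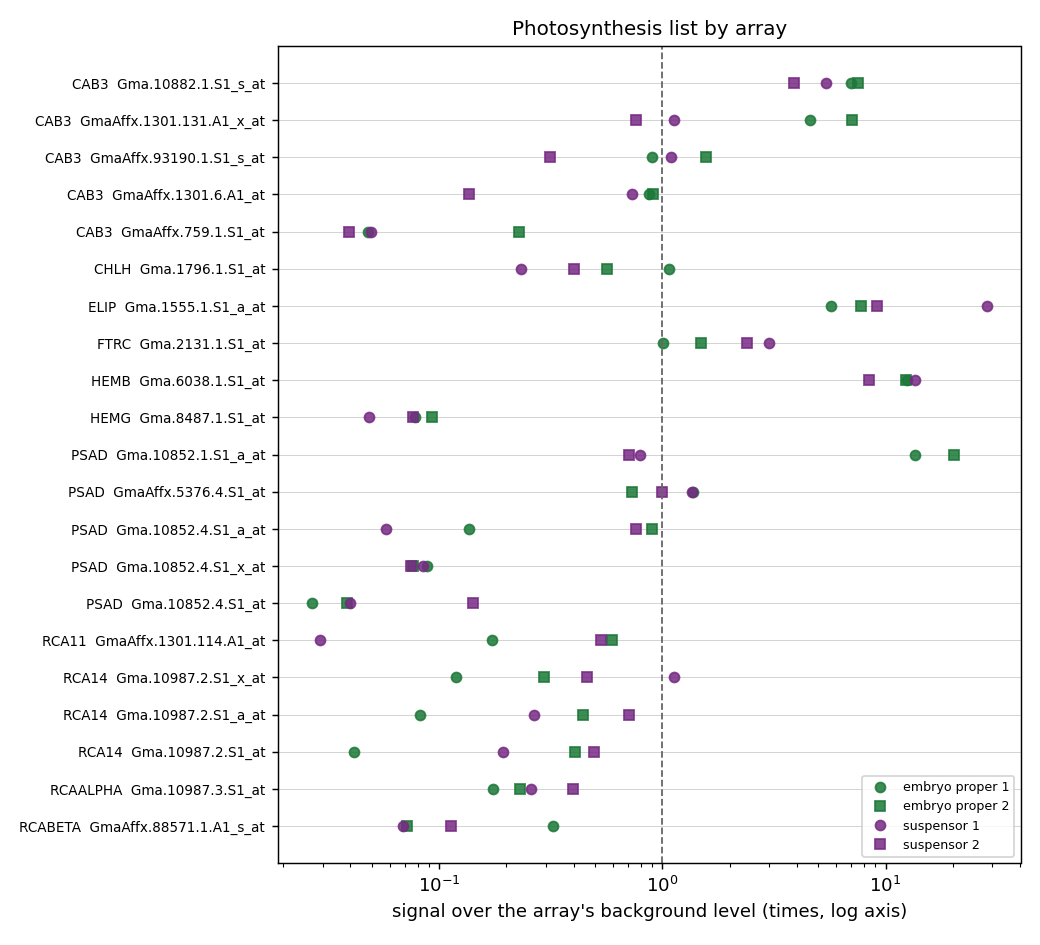
Signal over the background level of the array (times, log axis) for the 21 probe sets of the photosynthesis list, each point 1 array, green for embryo proper and purple for suspensor, circles for replicate 1 and squares for replicate 2, with a dashed line at background. One PSAD and 1 CAB3 probe set have the embryo proper arrays well to the right of the suspensor arrays, while ELIP and FTRC have them to the left.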

How the data were processed

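The authors deposited intensities, 1 per probe set. Per the submitters' processing notes, GCOS 1.3 made them. How it summarised probes is not given in the sources used here. With the outer 2% at each end left out, every deposited array averaged 500.0, and no further scaling was applied. RNA was amplified before labelling, per the labels' protocols.

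Probe sets above background on at least 2 of 4 arrays were compared as log2(intensity + 16) with limma 3.58.1 in R 4.3.3 (lmFit, eBayes with a variance trend, Benjamini-Hochberg adjustment over all 8972). The fit was tested on simulated data. No replicate block was used: arrays that share a number showed no common deviation (correlation -0.024), and no label explains the numbers. With 2 arrays a region, precision is limited by their number.

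Symbols came from the platform annotation. Members and lists were chosen with earlier results of these data known. Named by rule were all member probe sets, the list genes with a tested probe set (up to 12 a list) and the 5 nearest genes of PHYA and COL10. The other list genes were named after their values were seen. Alternatives covered the pseudocount, scaling, background level, filter, shared probes, variance trend, block and each array left out. No probe or promoter sequence was used here.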

Additional observations from a re-analysis of the deposited data

How the results depend on the processing

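The PHYA log2 difference, -2.12, was -1.88 after quantile normalization, -2.00 when arrays were centred on the tested probe sets and -2.29 with the Phytophthora and nematode probe sets as the centre. It was -2.22 to -2.03 with 1 array left out. That of the first COL10 probe set, -5.98, was -6.32 with a pseudocount of 1, -5.26 with 64, and -6.27 to -5.70 with 1 array left out. The COL10 values rest on suspensor signals below background.

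Calls over all probe sets, 80 in suspensor and 167 in embryo proper, became 138 and 292 with the replicate block. A 99th percentile background gave 134 and 293, detection required on every array 192 and 334, leaving out shared probes 48 and 111, and dropping the variance trend 21 and 66. The suspensor calls were 185 after quantile normalization, and 129 and 48 with the centrings. Against 233, 196 and 154 higher in embryo proper, that moved the split. With 1 array left out they were 3 to 153 and 3 to 1054, the lone array being assumed to vary like the other region. Stricter filters test fewer probe sets; otherwise the cause was not tested.

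With detection on all 4 arrays, 1 light signalling probe set (FTRC) and 2 photosynthesis probe sets (FTRC and ELIP) were called for suspensor and 0 for embryo proper, PSAD and the CAB3 call then being outside the fit. Photosynthesis calls in embryo proper, 2, were 1 without shared probes or without a variance trend and 0 to 2 with 1 array left out; in suspensor 0 to 1. HEMB, -0.06, was 0.22 after quantile normalization, 0.060 when centred on the tested probe sets and -0.32 to 0.20 with 1 array left out. LHY gave -0.52 to 0.12 and the second PSAD probe set -0.084 to 0.82. The replicate block changed no call of a tested member or list probe set. Detection and the number of arrays both limit these results: 24694 of 37593 soybean probe sets never exceeded background.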
